A study of Mus musculus with 2 samples.

Results

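The genes described here encode the nuclear subunits of oxidative phosphorylation, the 5 protein complexes of the inner mitochondrial membrane that respire and make ATP. They were chosen by symbol, as all genes on the array whose name begins with Nduf, Uqcr, Atp5 or Cox4 to Cox8, together with Sdha to Sdhd, Cyc1 and Cycs. The rule took 95 of the 24078 named genes on the array, read by 140 probes, and 93 of them were well above background on both arrays, out of 12510 such genes in all. They were 36 genes of complex I, 4 of complex II, 9 of complex III, 20 of complex IV with 18 measured, 15 of complex V, cytochrome c, 9 assembly factors and related genes, and 1 pseudogene. Both genes that were not measured, Cox7b2 and Cox8c, are isoforms known from testis, and neither passed the background test in either sample.

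The study compared tibialis anterior, a muscle at the front of the shin made up largely of fast fibres, between an N2ICD mouse and a control mouse with 1 array each. The N2ICD mouse carried a transgene for the intracellular domain of the receptor Notch2, the part that enters the nucleus when Notch is activated. Both samples came from adult male mice on a C57BL/6 background, and total RNA was labelled with Cy3 for a 1-colour Agilent array. The control is labelled by no other genotype, and the sources used here do not name the promoter that drives the transgene. With 1 array a group, genotype, animal, dissection and array cannot be told apart, and no difference below has a replicate check or a p-value. Fewer cells of a type and less RNA per cell cannot be told apart in whole muscle either.

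Complex I takes electrons from NADH and complex II from succinate, and both pass them to ubiquinone. Complex III passes them on to cytochrome c, and complex IV from there to oxygen. Complexes I, III and IV pump protons, and complex V, the ATP synthase, uses the gradient to make ATP. All complexes but II mix subunits from nuclear genes with subunits encoded by mitochondrial DNA. Slow and fast oxidative fibres hold more of these complexes than fast glycolytic fibres, and a few subunits of complex IV come as striated muscle isoforms.

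Levels are given as scaled signals, the processed signal divided by the 75th percentile of its own array, which was 190.4 for N2ICD and 168.9 for control. Differences are log2 values, N2ICD minus control, so that a positive value means a higher scaled signal on the N2ICD array. Signals of different probes are not set against each other, since each probe has its own response. Probes printed several times gave the spot noise, an SD of the difference of 0.14 over 244 probes. Split by level into 4 groups, the SD was 0.25 among the dimmest and 0.05 among the brightest probes. Spread between animals is not part of it.

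All 12 skeletal muscle fibre markers were well above background on both arrays, with a summed scaled signal of 16599 in N2ICD muscle and 18685 in control muscle. Nppa and Myl7 of heart muscle, Ucp1 and Adrb3 of brown fat and Lep of white fat were not well above background on either array. Other markers of the same cell types were, on both arrays: Myl4 and Myh6 of heart muscle, Cidea of brown fat, and Fabp4, Adipoq, Cidec and Plin1 of adipocytes.

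Probes of some genes with large differences are printed here because base composition, described further on, ran with the difference. They are examples and not the full set of the largest differences. Left out are Cox6b2 at -0.61 with 55% G+C, Ndufa5 at 0.35 with 43.3%, Ndufaf6 at -0.28 with 36.7% and Atp5o at -0.22 with 45%. The split in G+C between the printed probes is therefore cleaner than that over all genes. Each line gives the first 30 bases of a 60-base probe from the 5′ end, as deposited, with G and C in capitals, and the coordinates of the whole probe follow in the text on mm9.
Cox6c: CGCtCCtGaaCtatGaaaCatGaatatGtG
Cox7b: GatCaGtaGtCGtGCCaGCtGGtaCaataa
Ndufs4: aaaCCCaaGtCCaaGtCttatGGtGCaaaC
Ndufs7: GaGCtGCCaGGCtGaGCaCGataatCCCaG
Cox6a2: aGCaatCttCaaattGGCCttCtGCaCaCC
Cyc1: GGatGtCGCCaCCttCCttCGCtGGGCatC
The Cox6c probe lies at chr15:35861751-35861810 on the minus strand, the Cox7b probe at chrX:103217154-103217213 on the plus strand and the Ndufs4 probe at chr13:115078980-115079039 on the minus strand. These probes read genes that were higher on the N2ICD array and hold 21, 22 and 23 G or C among their 60 bases. The Ndufs7 probe lies at chr10:79719478-79719537 on the plus strand, the Cox6a2 probe at chr7:135349160-135349219 on the minus strand and the Cyc1 probe at chr15:76175938-76175997 on the plus strand. They read genes that were lower on the N2ICD array and hold 31, 33 and 33 G or C. Whether a probe lies in coding sequence or in an untranslated region was not analysed here.

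The subunit transcripts as a whole differed little between the N2ICD and the control array. The median difference over the 93 measured genes was 0.046, the interquartile range was -0.07 to 0.16, and the full range ran from -0.61 to 0.57. The median over all 12510 measured genes was 0.0040, with an interquartile range of -0.19 to 0.19. Of the 93 genes, 85 were among the brightest 25% of genes by mean level. Those 3128 genes had a median of 0.046 and an interquartile range of -0.10 to 0.18, so the subunit genes sat where bright genes in general sat. In all, 55 of the 93 genes, or 59.1%, were above 0, against 50.5% of all genes and 58.0% of the brightest 25%. These directions are relative to the 75th percentile: with the arrays scaled by spike-in spots instead, the median of all genes was 0.48 and 92 of the 93 genes were above 0.

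None of the 93 genes was at least 1.5-fold higher on the N2ICD array, where 5.17% of all measured genes and 3.04% of the brightest 25% were. Cox6b2 was the 1 gene at least 1.5-fold lower, against 4.74% of all genes and 1.98% of the brightest 25%. Which gene passed this threshold depended on the processing. Cox6c, at 0.57, passed it on the higher side with normexp background correction at 0.60, with median scaling at 0.64 and in the authors' deposited table at 0.59. Cox6b2, at -0.61, no longer passed with normexp at -0.36, median scaling at -0.54 or loess at -0.56. At a smaller threshold of 0.32 on the log2 scale, 5 genes were higher, Cox6c, Ndufa5, Ndufs4, Cox7b and Ndufaf5, a share of 5.38% against 14.3% of all genes and 11.7% of the brightest 25%. Cox6b2 was again alone on the lower side, a share of 1.08% against 14.4% and 7.51%. At 2-fold there were 0 genes on either side, where 1.45% of all genes and 1.09% of the brightest 25% were higher and 0.911% and 0.512% lower. The size of these differences did exceed spot noise for many genes. Differences of more than 2 SD of the spot noise at their level were found above 0 in 36 genes, 38.7%, against 23.2% of all genes and 36.8% of the brightest 25%. Below 0 they were found in 11 genes, 11.8%, against 20.0% of all genes and 24.3% of the brightest 25%.

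**Figure D1:**
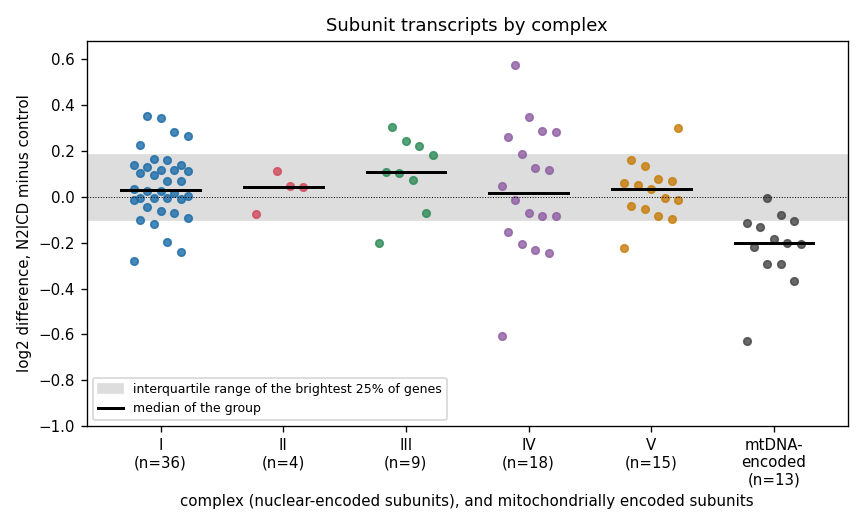
Log2 difference (N2ICD minus control) of each measured nuclear-encoded subunit by complex, and of the 13 subunits encoded by mitochondrial DNA; each point is a gene, and n is the number of genes. Group medians of the nuclear subunits lie between 0.015 and 0.11, inside the shaded interquartile range of the brightest 25% of genes, and the mitochondrially encoded subunits all lie below 0.

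**Figure D2:**
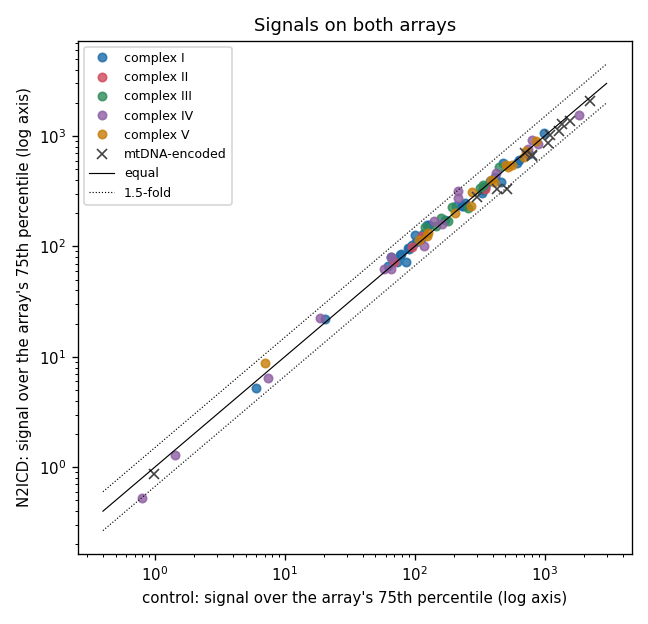
Scaled signal of each measured gene on the N2ICD array (vertical, log axis) against the control array (horizontal, log axis), each in units of the array's 75th percentile. The points follow the line of equal signal, and both genes outside the dotted 1.5-fold lines are Cox6b2, the dimmest point, and the mitochondrially encoded ND1.

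Complex I, the NADH dehydrogenase and the largest of the complexes, had a median difference of 0.030 over 36 genes, with 22 above 0 and 14 below. Its 7 nuclear core subunits, which bind NADH and carry electrons through a chain of iron-sulfur clusters, had a median of 0.015. Ndufv1, the flavin subunit that oxidises NADH, had scaled signals of 423 in N2ICD muscle and 415 in control muscle, a difference of 0.027. Its partner Ndufv2 had 249 in N2ICD, against 246 in control, a difference of 0.015. Both differences lie within the spot noise.

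Ndufs1, the largest core subunit, had 94.5 in N2ICD muscle and 90.0 in control muscle, a difference of 0.071. Ndufs3 had 307 in N2ICD muscle and 327 in control muscle, a difference of -0.091. Neither difference passed 2 SD of spot noise.

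Ndufs8, an iron-sulfur subunit, had 72.3 in N2ICD, against 72.8 in control, a difference of -0.0094. Ndufs7, whose cluster hands electrons to ubiquinone, had 383 in N2ICD muscle and 466 in control muscle, a difference of -0.28 from 1 probe. It was the lowest value of complex I.

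The 9 accessory subunits of the matrix arm, which surround the core, had a median of 0.16, with 5 above 0 and 4 below. Ndufa5 was the highest gene of complex I, with 158 in N2ICD, against 124 in control. Its difference of 0.35, a fold of 1.28, came from probes at 0.32 and 0.39 that do not overlap (chr6:24468666-24468725 and chr6:24472660-24472719, both minus strand). Ndufs4, needed to complete the NADH-oxidising module, had 128 in N2ICD muscle and 100.5 in control muscle, a difference of 0.34.

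Ndufa6, a member of the LYR protein family that binds the acyl carrier protein, had 158 in N2ICD, against 130.0 in control, a difference of 0.28. Ndufs6, a zinc-binding subunit, followed at 0.22 and Ndufa9, which binds NADPH, at 0.16. Ndufa2, Ndufa12 and Ndufa7 lay between -0.046 and -0.0069, inside the spot noise. Ndufv3, a small subunit of the NADH-oxidising module, was the lowest of the arm at -0.20, with its 3 probes at -0.055, -0.20 and -0.34. The brightest of these, at transcript position 1517, had 446 in N2ICD muscle and 512 in control muscle and gave the middle value.

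The 20 accessory subunits of the membrane arm had a median of 0.050, with 13 above 0 and 7 below. Ndufb5 was the highest at 0.26, but its probes at transcript positions 614 and 753 gave 0.059 and 0.47. Ndufs5 followed at 0.16, Ndufb3 at 0.14 and the acyl carrier protein Ndufab1 at 0.13. Ndufb11, Ndufb6, Ndufa8, Ndufa10 and Ndufa13 lay between 0.096 and 0.12, and Ndufc2, Ndufa3, Ndufa1 and Ndufb2 between 0.0051 and 0.067.

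Ndufb7, Ndufc1, Ndufb4 and Ndufb10 lay between -0.073 and -0.0072, Ndufb8 was at -0.10 and Ndufb9 at -0.12. Ndufa11, which lies at the contact of complex I with complex III in respiratory supercomplexes, was the lowest of the arm. It had 72.5 in N2ICD, against 85.7 in control, a difference of -0.24 from 1 probe at chr17:56857241-56857300 on the plus strand.

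**Figure D3:**
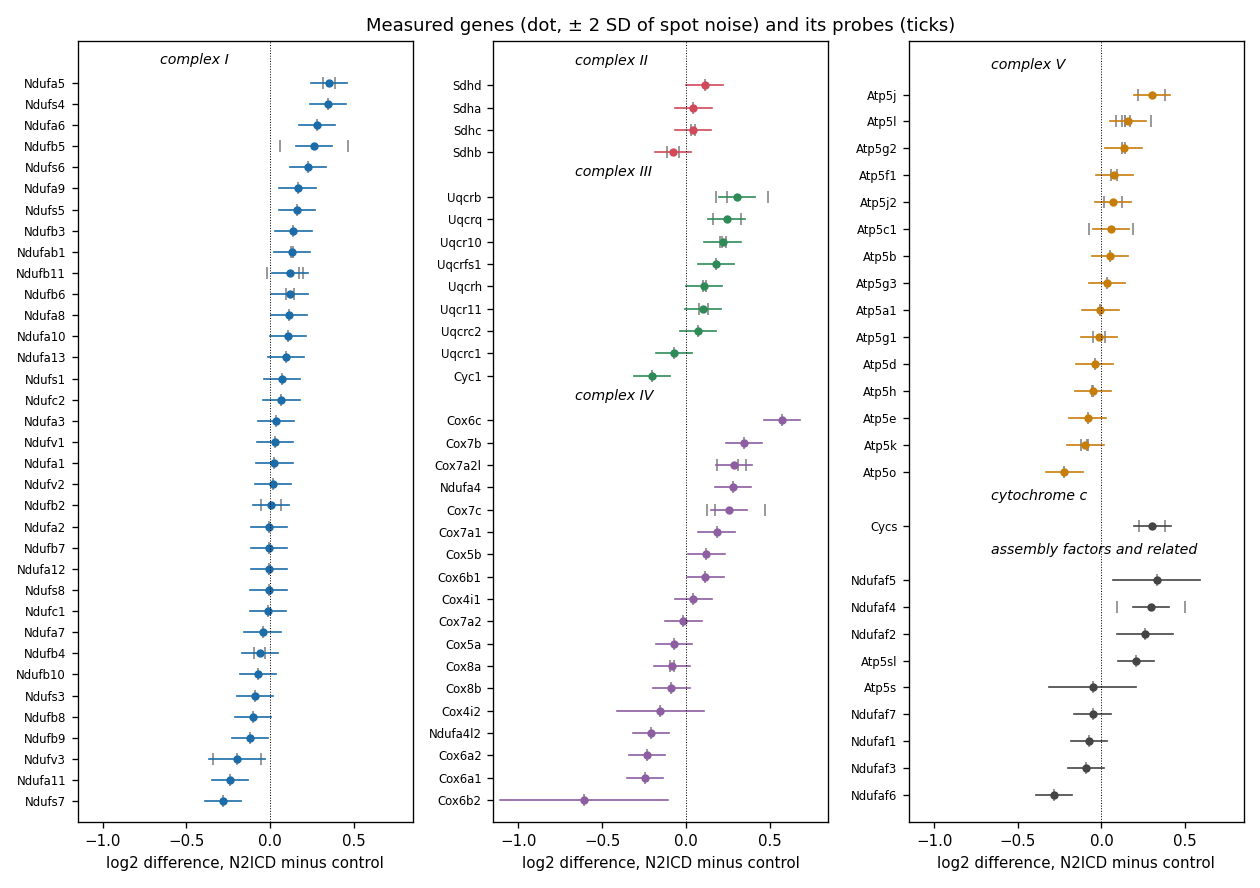
Log2 difference (N2ICD minus control) of the measured genes by complex, without 1 core subunit of complex I that is not reported here; dots are genes, horizontal lines are 2 SD of spot noise to each side, and grey ticks are the gene's single probes. Values from Ndufs7 at -0.28 to Ndufa5 at 0.35 span complex I, while Cox6c at 0.57 and Cox6b2 at -0.61 are the extremes of complex IV and of all genes shown.

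Complex II, succinate dehydrogenase, is also an enzyme of the citric acid cycle and the 1 complex with no mitochondrially encoded subunit. All 4 of its genes lay close to 0, with a median of 0.044. Sdha, the flavoprotein that oxidises succinate, had 72.0 in N2ICD muscle and 69.7 in control muscle, a difference of 0.046. Sdhb, the iron-sulfur subunit, had 332 in N2ICD, against 349 in control, a difference of -0.075. Sdhc, a membrane anchor, had 98.4 in N2ICD muscle and 95.6 in control muscle, a difference of 0.041. Sdhd, the other anchor, had 124 in N2ICD, against 114 in control, a difference of 0.11. Only Sdhd passed 2 SD of spot noise.

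Complex III, the cytochrome bc1 complex, had the highest median of the 5 complexes at 0.11, with 7 of 9 genes above 0. It lay 0.080 above complex I, 0.066 above complex II, 0.094 above complex IV and 0.078 above complex V, which is less than the SD of 0.16 between its own genes. The 5 small subunits that carry no electrons, Uqcrb, Uqcrq, Uqcr10, Uqcrh and Uqcr11, were all above 0, with a median of 0.22. Of the brightest 25% of genes, 58.0% were above 0. Under the 12 other ways of scaling, filtering and summarising, the 5 genes stayed above 0, with medians from 0.16 to 0.70. These settings reuse the same 2 arrays and are no replicates. The highest median came from spike-in scaling, where 92 of the 93 genes were above 0.

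Uqcrq, a small subunit of the membrane part, had 525 in N2ICD muscle and 443 in control muscle, a difference of 0.24 from probes at 0.16 and 0.33. Uqcr10 had 226 in N2ICD, against 195 in control, a difference of 0.22, with its 3 probes between 0.21 and 0.24. Uqcrh, the acidic hinge protein that helps cytochrome c1 meet cytochrome c, was at 0.11 and Uqcr11 at 0.10. Each of these last 3 genes has a pair of probes that share over 50 bases and are near repeats of 1 measurement.

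Uqcrb, which lines the ubiquinone reduction site, had the highest value of the complex, with 149 in N2ICD muscle and 121 in control muscle. Its difference of 0.30 is the mean of 3 overlapping probes on the minus strand of chromosome 13, printed below by their first 30 bases because they disagree.
Uqcrb at transcript position 309: CttGaaCCCtatCtaaaaGaGGttatttGG
Uqcrb at transcript position 335: tCGGGaaaGaaaGGaGaGaGaaGaGtGGGC
Uqcrb at transcript position 346: aGGaGaGaGaaGaGtGGGCaaaGaaGtGat
They cover chr13:67001691-67001750, chr13:67001665-67001724 and chr13:67001654-67001713 and gave 0.24, 0.49 and 0.18. The probes at positions 335 and 346 share 49 bases with 0 mismatches, and their values are still 0.31 apart. Over the array, different probes of 1 gene had an SD of 0.25 in 3123 genes, and over the 30 subunit genes with several probes it was 0.11. The sets are unlike: in 11 of the 30 genes probes overlap, and most subunit genes are bright, while the 3123 genes have no such limit on level.

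Among the catalytic subunits of complex III, Uqcrfs1, the Rieske iron-sulfur protein, had 181 in N2ICD, against 160 in control, a difference of 0.18. Cyc1, cytochrome c1, had 225 in N2ICD muscle and 259 in control muscle, a difference of -0.20. The Rieske protein hands its electrons to cytochrome c1, and the transcripts of the pair lay on opposite sides of 0. The core proteins Uqcrc1 and Uqcrc2 form the matrix part. Uqcrc1 had 171 in N2ICD, against 180.0 in control, a difference of -0.070.

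Uqcrc2 had 155 in N2ICD muscle and 147 in control muscle, a difference of 0.073. Its probe (chr7:127802599-127802658, plus strand) was printed in 9 spots, whose differences ran from 0.011 to 0.15 with a mean of 0.073 and an SD of 0.042. All 9 spots were above 0, so the spots of 1 probe repeated each other closely, while the spread between mice was not measured.

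Cycs encodes somatic cytochrome c, the carrier between complexes III and IV. It had 137 in N2ICD, against 111 in control, a difference of 0.30. Its measured probes at transcript positions 469 and 1039 gave 0.23 and 0.38, and a probe at position 2998 was at background level on both arrays.

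Complex IV, cytochrome c oxidase, had the widest spread, with a median of 0.015, an SD of 0.28 between 18 genes, and 9 genes on each side of 0. Cox6c, a small membrane subunit, was the highest of all 93 genes. It had 318 in N2ICD muscle and 214 in control muscle, a difference of 0.57 and a fold of 1.49, from 1 probe. Cox7b had 276 in N2ICD, against 217 in control, a difference of 0.35. Cox7b and Cox7c also lie in the membrane part of the enzyme, and Cox7c was at 0.26. The 2 brighter of its 3 probes gave 0.13 and 0.18, and the remaining dim probe, with signals of 112 in N2ICD muscle and 71.4 in control muscle, gave 0.47.

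Cox7a2l, a Cox7a relative, had 79.9 in N2ICD, against 65.5 in control, a difference of 0.29 from 3 probes between 0.19 and 0.36. Ndufa4, a complex IV subunit that was first counted to complex I, had 171 in N2ICD muscle and 141 in control muscle, a difference of 0.28. Its paralog Ndufa4l2, which is induced by hypoxia in other cells, had 6.43 in N2ICD, against 7.43 in control, a difference of -0.21. The paralogs thus lay 0.49 apart.

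Cox5b, on the matrix side, was at 0.12 and Cox5a, its neighbour, at -0.072. Cox4i1, the common form of the largest nuclear subunit, had 771 in N2ICD muscle and 747 in control muscle, a difference of 0.045. Cox4i2, its lung isoform, had 1.30 in N2ICD, against 1.45 in control, a difference of -0.15 that lies within the noise at that level. Cox6b1, which faces cytochrome c, had 62.6 in N2ICD muscle and 57.7 in control muscle, a difference of 0.12.

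Cox6b2, the testis isoform of that subunit, had 0.524 in N2ICD, against 0.799 in control, a difference of -0.61. Its raw signals were 99.8 in N2ICD muscle and 135 in control muscle, and it was in the dimmest level group, where the spot noise was 0.25. It was the dimmest of the 93 genes and read by 1 probe.

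Striated muscle has its own isoforms of Cox6a, Cox7a and Cox8, each set here against the form found in most tissues. Cox6a2, the muscle form, had 1554 in N2ICD, against 1827 in control, a difference of -0.23. Cox6a1, the common form, had 101 in N2ICD muscle and 119 in control muscle, a difference of -0.24. The muscle form minus the common form was 0.010 here but depended on the scaling, at 0.10 after loess and 0.28 after quantile normalization, where Cox6a2 was at -0.0062 and Cox6a1 at -0.29.

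Cox8b, the muscle form, had 688 in N2ICD, against 730.0 in control, a difference of -0.086. Cox8a, the common form, had 62.1 in N2ICD muscle and 65.7 in control muscle, a difference of -0.082. This pair was -0.0037 apart, and from -0.045 to 0.14 over the other settings, the highest again after quantile normalization. Cox7a1, the muscle form, had 914 in N2ICD, against 804 in control, a difference of 0.18. Cox7a2, the common form, had 161 in N2ICD muscle and 162 in control muscle, a difference of -0.015. The Cox7a pair lay 0.20 apart, and this value ran from 0.15 to 0.39 over the other settings.

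Complex V, the ATP synthase, had the narrowest spread of the larger complexes, an SD of 0.12 over 15 genes, with a median of 0.032. Its rotary head, the F1 part, had a median of -0.0064 over 5 genes. Atp5b, the catalytic beta subunit, had 894 in N2ICD, against 863 in control, a difference of 0.051. Atp5a1, the alpha subunit, had 523 in N2ICD muscle and 525 in control muscle, a difference of -0.0064. Atp5c1, the central shaft, was at 0.058, the mean of probes at -0.073 and 0.19, and Atp5d was at -0.041. Atp5e, the smallest F1 subunit, had 653 in N2ICD, against 691 in control, a difference of -0.083. None of the 5 differences by gene passed 2 SD of spot noise.

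The membrane ring of the ATP synthase is built of subunit c, whose mature protein is the same from each of 3 genes that differ in the import sequence. Atp5g1 had 124 in N2ICD muscle and 126 in control muscle, a difference of -0.016. Atp5g2 had 549 in N2ICD, against 501 in control, a difference of 0.13. Atp5g3 had 736 in N2ICD muscle and 720.4 in control muscle, a difference of 0.032. Only Atp5g2 of the subunit c genes passed 2 SD of spot noise.

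The peripheral stalk, which holds the head still while the ring turns, held both extremes of the complex. Atp5j, coupling factor 6, was the highest at 0.30. Its bright probe, at transcript position 661, had 178 in N2ICD, against 152 in control and gave 0.22, while a dim probe at position 36 gave 0.38. Atp5o, which ties the stalk to the head, was the lowest, with 235 in N2ICD muscle and 274 in control muscle, a difference of -0.22. Atp5f1 was at 0.077 and Atp5h at -0.052.

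Of the small membrane subunits of complex V, which shape the dimers that bend the inner membrane, Atp5l had 309 in N2ICD, against 277 in control, a difference of 0.16. All 6 of its probes were above 0, from 0.089 to 0.30, but most of them overlap. Atp5j2 was at 0.068. Atp5k had 380.1 in N2ICD muscle and 406 in control muscle, a difference of -0.096 from 3 probes, of which the files place 2 on chromosome Y in mm9.

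The 9 assembly factors and related genes had a median of -0.053, with 4 above 0 and 5 below. The complex I assembly factors Ndufaf5, Ndufaf4 and Ndufaf2 were at 0.33, 0.30 and 0.26, and Atp5sl was at 0.21. The 2 probes of Ndufaf4 were at 0.090 and 0.50. Ndufaf7, Ndufaf1 and Ndufaf3 lay between -0.091 and -0.053, with Atp5s at -0.053, and Ndufaf6 was the lowest at -0.28. The assembly factors therefore showed no common direction. Atp5c1-ps, annotated as a pseudogene of Atp5c1, was at 0.26, and transcripts of its parent gene were not told apart from its own.

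The 13 subunits encoded by mitochondrial DNA, which are not among the 93 genes, gave a value against which the nuclear subunits could be set. All 13 were below 0, with a median of -0.20, where 50.5% of all genes and 58.0% of the brightest 25% were above 0. ND1, a membrane subunit of complex I, was the lowest at -0.63, with 332 in N2ICD, against 512 in control, and ND3 was the nearest to 0 at -0.0077. The 83 measured nuclear subunits with cytochrome c had a median of 0.046, which is 0.25 above the mitochondrially encoded ones. A low median was not particular to mitochondrially encoded genes. The 12 skeletal muscle fibre markers, with median scaled signals of 1216 in N2ICD muscle and 1520 in control muscle, had a median difference of -0.21. Of these markers, 9 were below 0.

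The gap between nuclear and mitochondrially encoded subunits was present within each complex that has both kinds. It was 0.22 in complex I with 7 mitochondrial genes, 0.32 in complex III with 1, 0.15 in complex IV with 3 and 0.36 in complex V with 2. In complex I the mitochondrial median is the value of the dim ND6, -0.19. The mitochondrial transcripts share 1 genome and are made from long common precursors, so the 13 values are not independent of each other. Over the other settings the gap ran from 0.16 to 0.31. The sign of the mitochondrial values themselves depended on the scale: with the arrays scaled by their spike-in spots 12 of 13 were above 0 with a median of 0.28, and after quantile normalization 8 were below 0, 4 above and 1 at 0. The nuclear median moved up by the same amount on the spike-in scale, so the gap did not change there.

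**Figure D4:**
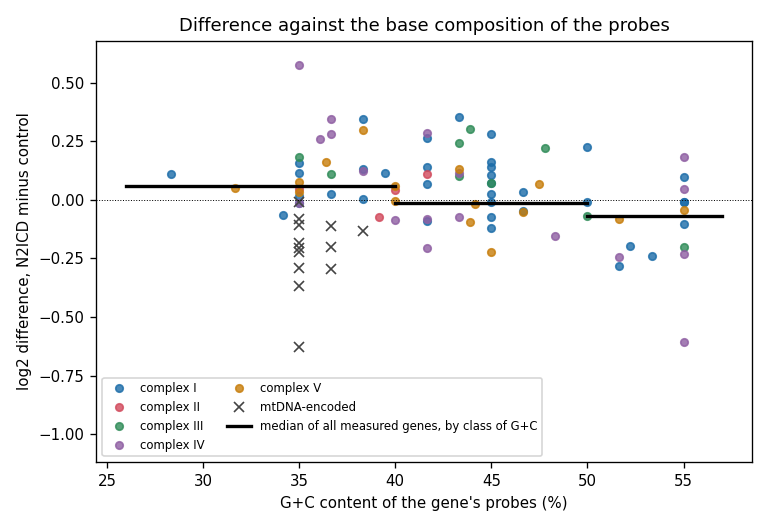
Log2 difference (N2ICD minus control) of each gene against the mean G+C content of its probes in percent; colours are complexes, crosses are the 13 mitochondrially encoded subunits, and black lines are medians of all measured genes within 3 classes of G+C. Subunit genes with under 40% G+C lie mostly above 0 and those with at least 50% mostly below, and the crosses lie below 0 at low G+C.

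The differences of the subunit genes ran with the base composition of their probes. Across the 93 genes the difference and the mean G+C content had a Pearson r of -0.36 and a Spearman rho of -0.31. Across all 12510 genes r was -0.16 and rho -0.18, and across the brightest 25% r was -0.12. These are correlations across genes on the same pair of arrays, and genes are not independent replicates. Subunit genes with under 40% G+C had a median of 0.11, with 25 of 32 above 0. Those from 40% to 50% had a median of 0.067, with 25 of 41 above 0, and those with at least 50% had a median of -0.077, with 5 of 20 above 0. Over all genes the same classes had medians of 0.058, -0.014 and -0.069.

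The pattern was seen within the larger complexes as well, with r at -0.35 over the 36 genes of complex I, -0.60 over 18 of complex IV and -0.48 over 15 of complex V. In complex III r was -0.62 over 9 genes, but the medians of the 3 classes were not in order, at 0.15, 0.22 and -0.14. The 4 genes of complex II went the other way, with medians of -0.015 under 40% and 0.077 from 40% to 50%. The pattern also had exceptions among single genes in both directions. Cox7a1, read by a probe of 55% G+C, was at 0.18, and Ndufb4, at 34.2%, was at -0.063. The mitochondrially encoded subunits, whose probes held 35% to 38.3% G+C, all lay below 0, while 2660 of the 4530 measured genes with under 40% G+C were above it. Taking the trend over all genes out of the differences left the complex medians between -0.00035 and 0.11 and widened the gap between nuclear and mitochondrially encoded subunits to 0.31. Cox6c was then at 0.51, Ndufs7 at -0.21 and Cox7b at 0.30. The part of base composition in the single differences was not tested further.

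Nuclear respiratory genes are known to share promoter motifs for the factors NRF-1, GABP (NRF-2), ERR and YY1. RefSeq promoters on GRCm38.p6, from 250 bases before to 50 after the start, were matched by symbol for 67 of the 83 subunit genes. Matches were sought on both strands for GCGCA, any base and GCGC in a row (NRF-1), CCGGAAG (GABP), AAGGTCA (ERR) and AANATGGCG (YY1), and no promoter of the 67 genes held overlapping matches of different motifs. The NRF-1 letters were found in 17 genes, 25.4%, against 11.0% of 8910 measured genes with a promoter and 7.17% of all 17492 protein-coding genes. The GABP letters were found in 16 genes, 23.9%, against 19.1% of measured and 12.9% of all genes. The ERR letters were found in 8 genes, 11.9%, against 4.12% and 4.73%, and the YY1 letters in 10 genes, 14.9%, against 5.87% and 3.64%. In all, 38 of the 67 genes held at least 1 of the motifs and 11 held at least 2.

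The median of genes with the letters minus that of genes without was -0.014 for NRF-1, -0.066 for GABP, -0.040 for ERR and 0.059 for YY1, as a description with no test. Promoters of 3 genes with NRF-1 letters are printed because their genes lay on different sides of 0. They show the 250 bases before the start, 5′ to 3′ on the strand of the gene, with NRF-1 and GABP matches in capitals.
Cox6a1: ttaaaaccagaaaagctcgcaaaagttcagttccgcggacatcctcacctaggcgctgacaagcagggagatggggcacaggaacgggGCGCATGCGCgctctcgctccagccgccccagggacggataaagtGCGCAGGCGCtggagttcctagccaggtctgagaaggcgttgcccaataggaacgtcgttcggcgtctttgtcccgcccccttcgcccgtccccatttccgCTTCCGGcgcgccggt
Sdhd: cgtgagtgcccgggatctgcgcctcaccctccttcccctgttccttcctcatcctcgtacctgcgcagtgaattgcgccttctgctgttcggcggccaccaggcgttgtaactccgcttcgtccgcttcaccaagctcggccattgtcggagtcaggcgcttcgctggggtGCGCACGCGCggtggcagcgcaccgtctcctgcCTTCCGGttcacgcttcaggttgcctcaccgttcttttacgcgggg
Ndufs6: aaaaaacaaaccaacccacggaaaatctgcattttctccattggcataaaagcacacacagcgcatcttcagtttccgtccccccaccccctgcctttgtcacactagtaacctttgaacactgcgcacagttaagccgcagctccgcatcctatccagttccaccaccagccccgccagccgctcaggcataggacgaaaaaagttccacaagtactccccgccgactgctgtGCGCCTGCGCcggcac
On GRCm38.p6 and on the minus strand, these lie at chr5:115348959-115349208 for Cox6a1, chr9:50603850-50604099 for Sdhd and chr13:73328483-73328732 for Ndufs6. Cox6a1, with NRF-1 and GABP matches, was at -0.24, Sdhd, also with both, at 0.11, and Ndufs6, with NRF-1 alone in these bases, at 0.22. Over all 17 genes with NRF-1 letters the differences ran from -0.24 for Cox6a1 to 0.35 for Ndufa5, with 10 above 0 and 7 below.

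Other mitochondrial gene groups were read beside the subunits. Of 14 citric acid cycle genes, 12 were above 0 with a median of 0.12, against 50.5% above 0 and a median of 0.0040 over all genes. Of the brightest 25% of genes, 58.0% were above 0, with a median of 0.046. Dld, the dihydrolipoamide dehydrogenase shared by several dehydrogenase complexes, was the 1 of them past 1.5-fold. That is a share of 7.14%, against 5.17% of all genes and 3.04% of the brightest 25% on the higher side. Dld had 12.5 in N2ICD muscle and 7.79 in control muscle, a difference of 0.69, and Idh3a, a subunit of the NAD-dependent isocitrate dehydrogenase, was at 0.39. Of 29 measured assembly factors with other names, 19 were above 0 with a median of 0.084. The ATP synthase inhibitor Atpif1 was at -0.57 and the complex IV assembly factor Coa5 at 0.55.

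Enzymes that feed ubiquinone by other routes had a median of -0.11 over 6 genes, with 2 above 0. Etfb, an electron transfer flavoprotein subunit, was at -0.25 and Gpd2, the mitochondrial glycerol phosphate dehydrogenase, at -0.19. Ubiquinone synthesis had a median of -0.017 over 9 genes, with Coq2 at 0.41 and Pdss1 at -0.19. Carriers and import components of the membranes had a median of 0.076 over 14 genes, with Tomm20 at 0.45 and Timm50 at -0.26.

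The lists of other cell types and of muscle fibres moved beside these values. The 12 fibre markers had a median of -0.21, with 9 below 0, so these abundant muscle transcripts were mostly lower relative to the 75th percentile, a direction that spike-in scaling, with its shift of all genes to 0.48, would turn. Myh2, the myosin of fast oxidative fibres, was at 1.30, Myh1, another fast myosin, at 0.028 and Myh4, that of fast glycolytic fibres, at -0.26. The Myh4 value lies near the median of the fibre markers, with Ckm at -0.52 and Pvalb at -0.42 further below 0. Summed scaled signals of the marker lists were 4.0 in N2ICD, against 5.33 in control for 4 of 4 macrophage markers. They were 21.8 in N2ICD muscle and 27.7 in control muscle for 4 of 4 endothelial markers, and 297 in N2ICD, against 366 in control for 4 of 4 fibroblast markers. They were 213 in N2ICD muscle and 226 in control muscle for 4 of 4 erythroid markers, and 35.8 in N2ICD, against 28.3 in control for 4 of 5 adipocyte markers. Single genes carry these sums and members differ in sign: 2 of the 4 macrophage markers were above 0, with Lyz2 at 0.40 and Csf1r at -0.61, and 2 of the 4 adipocyte markers, where Fabp4 with 32.4 in N2ICD muscle and 25.1 in control muscle makes up most of the sum and Plin1 was at -0.30. Above 0 were also 1 of 4 endothelial, 1 of 4 fibroblast and 0 of 4 erythroid markers. Their part in the differences of the subunit genes was not tested.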

How the data were processed

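Total RNA of 1 N2ICD and 1 control muscle was hybridised to 1 array each, with the group given by the labels. Per the file headers, the deposited spot intensity came from Agilent Feature Extraction 10.10.1.1, was background-subtracted within each array and carries probe coordinates on mm9. A table deposited by the authors holds a fold (ratio) per probe, an intensity and a normalized log2 value per array, and how it was made is not stated. Its values served as an alternative.

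The log2 of each processed signal was reduced by that of the 75th percentile of the array over 59305 non-control spots. The 215 spots marked in either file as uneven or as outliers of their population were removed, spots of a probe were averaged into 55672 probes, and the probes of a gene that passed the background test on both arrays were averaged to give the gene. No test can be made from 1 array a group: values, counts and medians are given beside those of all 12510 measured genes, at 0.32 on the log2 scale, at 1.5-fold and at 2-fold. Spot noise was taken from probes printed at least 3 times. Each gene was set against the noise of the level group of its mean level, whatever the number of its probes. For genes that average bright and dim probes, such as Atp5j, Cox7c and Ndufab1, this can understate the noise.

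The rule for printed signals took 49 genes: the 3 highest and 3 lowest of each complex, all core subunits and isoform pairs, Cycs, and any gene past 1.5-fold. The values of 1 of them are not reported here, though it is part of the counts and medians. The members and all gene lists were chosen with earlier results of these data known. Alternatives were normexp background correction (offset 50), median scaling, quantile normalization, loess on level and spike-in scaling over 7 E1A probes. Further ones were the 75th percentile of spots above background on both arrays, looser filters, the brightest probe, means, complexes by symbol alone and other folds. Removing the trend with probe G+C and leaving out probes with a signal under 1000 were chosen after seeing the data. The steps were tested on simulated data. Promoter sequences came from RefSeq on GRCm38.p6. The tools were R 4.3.3 with limma 3.58.1, and Python 3.11.15 with statsmodels 0.14.6, pandas 2.3.3 and numpy 2.4.6. The number of arrays limits the precision.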

Additional observations from a re-analysis of the deposited data

Results flagged for a closer look

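A probe of Ndufa3 at transcript position 256 (mm9, chr7:3569447-3569506, plus strand) entered no comparison because it was well above background in 1 of the 2 samples alone. Its signal was 47.6 in N2ICD and 20.7 in control. Set against the lowest signal that passed the background test on the control array, N2ICD was 1.66-fold higher, or 0.73 on the log2 scale. This value makes no allowance for spot noise, which was 0.25 among the dimmest probes. The probe was flagged for passing on the N2ICD array alone, so its direction came with that choice. The other probe of Ndufa3, at transcript position 280, had scaled signals of 388 in N2ICD and 379 in control, a difference of 0.033. The probes of this gene therefore gave different values, and what the dim one measures was not tested.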

How the results depend on the processing

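No paired analysis was possible because each group holds 1 array. Median scaling put the median over all members at 0.12 and those of complexes I to V at 0.10, 0.11, 0.18, 0.085 and 0.10. Spike-in scaling, which moved the median of all genes to 0.48, put them at 0.52 for all members and 0.51, 0.52, 0.59, 0.49 and 0.51 for complexes I to V, with 36 genes past 1.5-fold and 92 of 93 above 0. Relative to all genes these shifts leave the members near 0. Apart from both scales, the median over all members ran from 0.030 to 0.084 and that of complex III from 0.084 to 0.15. The complex II median was -0.013 after quantile normalization, and that of complex IV was -0.044 without any filter and 0.081 with probes of at least 1000 alone. The number of genes past 1.5-fold, 1 as reported, was 0 after loess, without the trend on G+C and with bright probes alone, and 2 with no filter (Ndufaf5 and Cox6b2) and in the authors' deposited table (Cox6c and Cox6b2). It was 1 with normexp and median scaling, but there it was Cox6c, higher, in place of Cox6b2, lower. It was 6 at 0.32 on the log2 scale and 0 at 2-fold. The nuclear minus mitochondrial gap was 0.16 after quantile normalization, 0.19 after loess and 0.31 without the trend on G+C. Of 49 genes, 20 had the other sign with spike-in scaling, and 0 to 6 under each other setting. Counts of all genes at least 2-fold higher and lower, 182 and 114 as reported, were 77 and 41 with normexp, 831 and 24 with spike-in scaling, 334 and 307 with a looser filter, 720 and 812 with none, and 32 and 19 with bright probes. The causes were not tested. Low signal limits Cox6b2 and Cox4i2, and single probes limit 63 of the 93 genes.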
